A study of Homo sapiens with 12 samples.

Results

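The genes described here encode the machinery that fires replication origins and copies DNA at the fork. They cover the CDC45 and GINS parts of the active helicase, the factors and kinase that fire it, and the replicative DNA polymerases. They also cover the sliding clamp and its loaders, the single-strand binding protein, the enzymes that mature Okazaki fragments and the proteins that protect the fork. The genes were chosen by symbol, from knowledge of these roles and with earlier results of these data known. All 42 were among the 14828 genes of the expression table and among the 14624 genes tested. The cells were 22Rv1, a human prostate carcinoma line, in which doxycycline switched on either a nontargeting hairpin (shNT) or 1 of the CENPA-targeted hairpins shCENPA1 and shCENPA2. All 3 groups received doxycycline at 2 µg/ml for 72 h, so that the controls share the vector system and the drug. CENPA is the histone H3 variant that marks centromeres, and the comparison asks which transcripts differ once it is depleted. The mRNA of 2 libraries per shRNA was sequenced, each in lanes 7 and 8, and the lanes of a library were averaged, giving n = 2 libraries per group.

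At a licensed origin the MCM ring is inactive. The DBF4-CDC7 kinase and a set of firing factors then bring CDC45 and the GINS complex to it, which makes the active helicase. Behind the helicase, RPA coats the exposed single strand, polymerase alpha-primase lays down primers, a clamp loader puts PCNA on the primer ends, polymerase epsilon extends the leading strand and polymerase delta the lagging strand, and the short lagging pieces are trimmed and joined. Many of these genes are transcribed at the G1/S transition under E2F factors, whereas some subunits are made in resting cells too.

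The libraries held 79172294 to 133074655 reads on genes, and the 42 genes rest on 423 to 24502 reads per library, so that the number of libraries, rather than counting error, limits the precision. Epithelial genes marked the line in every library, with KRT18 at 6.49 to 6.97 log2 RPKM and KRT8 at 5.63 to 5.90. The prostate gene HOXB13 was at 7.79 to 8.39. RPKM, reads per kilobase, adjusts for gene length and library depth. The fibroblast gene COL1A1 was at -0.07 to 0.37. PTPRC, PECAM1 and KRT5, markers of other cell types, were looked up and are not among the genes of the expression table. CENPA itself was at 2.46 and 2.18 log2 RPKM with shNT, 0.50 and 0.58 with shCENPA1, and -0.47 and -0.41 with shCENPA2. Its log2 fold change was -1.78 with shCENPA1 (limma adjusted p = 0.000287) and -2.76 with shCENPA2 (limma adjusted p = 1.13e-05), and the groups did not overlap.

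Promoter sequences were available for 35 of the 42 genes, as windows of 250 bases before to 50 bases after each annotated start in RefSeq on GRCh38.p14, and the others are GINS4, POLD3, RPA2, RPA3, DNA2, RECQL4 and DSCC1. These windows were searched on both strands for the letters TTTCCCGC, TTTCGCGC, TTTGCCGC and TTTGGCGC. These letters are the spellings of the element that E2F factors are known to bind. At least 1 match lay in 15 of the 46 windows of these genes (32.6%), against 3.31% of the 35116 windows of all genes. For comparison, CCAAT lay in 52.2% of the windows of the fork genes and 34.6% of all windows, and the cell cycle homology region TTTGAA or TTCGAA, known from G2/M promoters, in 4.35% and 16.4%. The 6 stretches printed here, each 80 bases written 5′ to 3′ on the strand of the gene with the match in capitals, come from 4 genes that fell with both shRNAs (PCNA, GINS2, POLA2 and CDC7) and from POLE4 and TIPIN, which did not pass the test with either.
PCNA, chr20:5126623-5126702, minus strand: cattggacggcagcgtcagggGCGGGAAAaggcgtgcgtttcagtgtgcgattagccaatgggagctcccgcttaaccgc
GINS2, chr16:85688955-85689034, minus strand: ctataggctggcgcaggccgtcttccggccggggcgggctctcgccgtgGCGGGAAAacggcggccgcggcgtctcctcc
POLA2, chr11:65261882-65261961, plus strand: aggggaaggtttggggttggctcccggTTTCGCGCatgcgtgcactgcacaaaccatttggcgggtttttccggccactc
CDC7, chr1:91501032-91501111, plus strand: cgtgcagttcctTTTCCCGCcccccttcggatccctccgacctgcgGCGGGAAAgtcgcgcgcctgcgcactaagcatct
POLE4, chr2:74958563-74958642, plus strand: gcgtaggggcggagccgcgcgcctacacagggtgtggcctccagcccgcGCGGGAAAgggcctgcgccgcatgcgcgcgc
TIPIN, chr15:66356686-66356765, minus strand: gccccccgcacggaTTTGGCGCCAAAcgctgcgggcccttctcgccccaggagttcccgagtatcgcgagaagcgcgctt
In PCNA the match began 59 bases before the start, in GINS2 31 bases before it, in POLA2 53 bases and in POLE4 31 bases. CDC7 held a match in each orientation, at 68 and 34 bases before the start, and in TIPIN the 2 matches overlap on opposite strands. Genes with and without a match fell. Of the 15 genes with a match 12 were lower with shCENPA1 (adjusted p under 0.05 from limma) and 13 with shCENPA2, and of the 20 without one 13 and 15. The median log2 fold changes were -0.84 with and -0.72 without a match for shCENPA1, and -1.14 and -1.03 for shCENPA2. A match describes letters in a window, not a bound site. The genes were chosen by role, and many are transcribed under E2F factors, so their share of matches could follow from that choice. The windows of all genes were not matched to them for expression or base composition.

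Most of the fork genes were lower in cells depleted of CENPA, and none passed as higher. With shCENPA1, 29 of 42 passed the test as lower (adjusted p under 0.05 from limma), where 4.45% of all genes tested were lower. With shCENPA2, 34 of 42 were lower, where the share over all genes was 10.5%. Of all genes 2.69% and 8.05% were higher with shCENPA1 and shCENPA2, and of the fork genes 0 and 0. The 29 genes of shCENPA1 were all among the 34 of shCENPA2. Of all genes tested, 651 were lower with shCENPA1 and 604 (4.13%) with each shRNA. Most shCENPA1 calls over all genes thus recurred with shCENPA2 too. These comparisons share the shNT libraries and are therefore not independent of each other. Over the 42 genes the median change in log2 RPKM was -0.72 for shCENPA1 and -1.04 for shCENPA2, beside medians of 0.00 and 0.01 over all genes tested. In bulk RNA, fewer cells in a phase of the cell cycle and less RNA per cell cannot be told apart.

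The decrease was seen in each library. Relative to the mean of the shNT libraries, the median of the 42 genes was -0.80 and -0.69 log2 units in the shCENPA1 libraries and -1.04 and -1.05 in the shCENPA2 libraries, against -0.02 and 0.02 in the shNT libraries themselves. All 4 knockdown libraries lay below both shNT libraries for 38 of the 42 genes, where 20.5% of all genes showed that order. The 4 exceptions were POLE4, POLD2, POLD4 and TIPIN. Genes lower by more than 2-fold numbered 10 with shCENPA1, where the share over all genes was 1.83%, and 22 with shCENPA2, where it was 4.45%. With 1 added to RPKM before the logarithm these counts were 3 and 13.

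**Figure D1:**
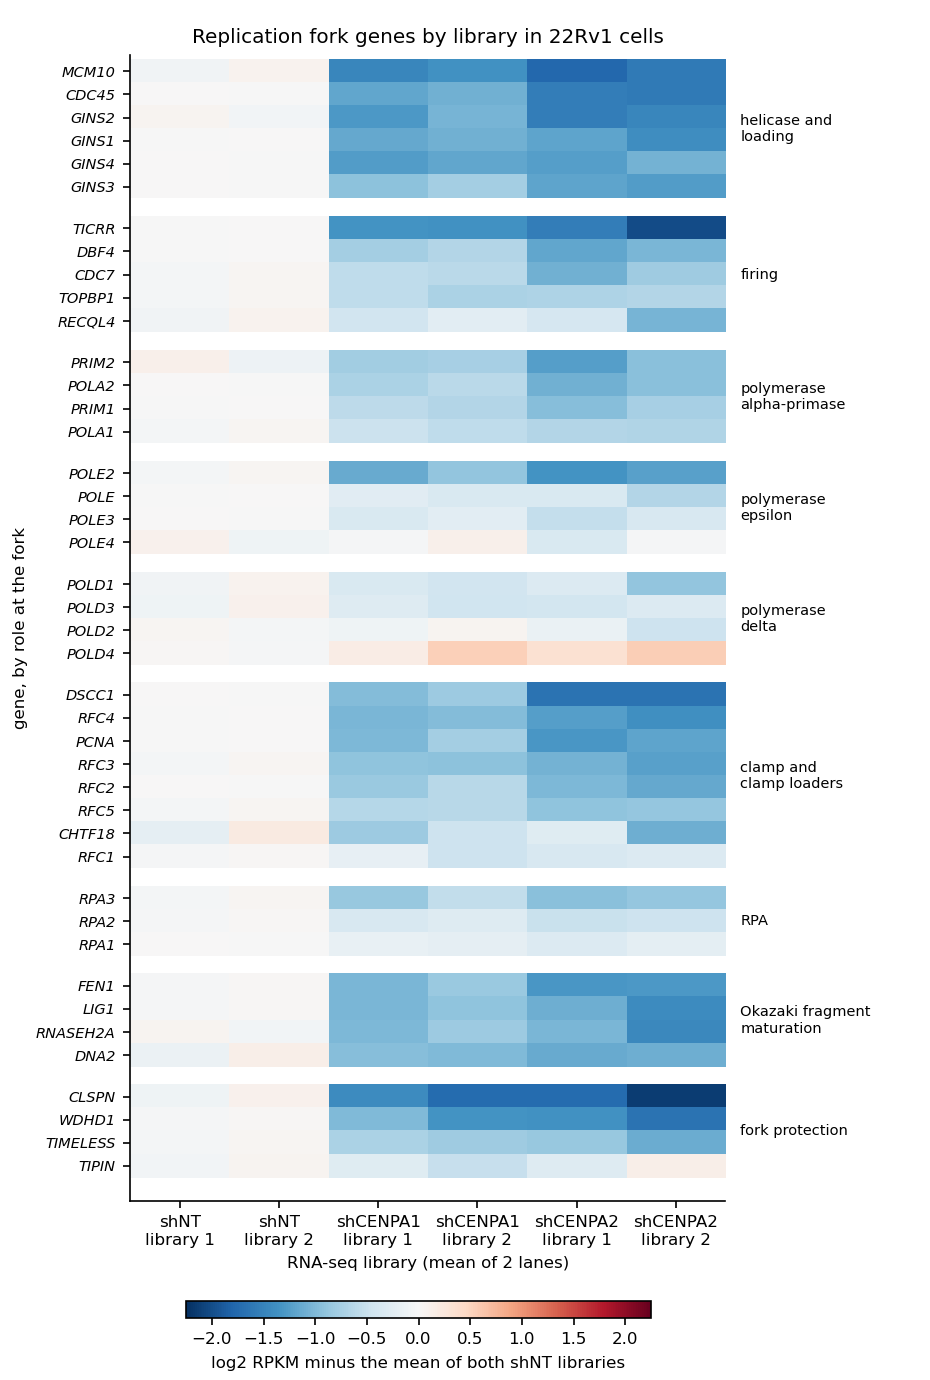
Heat map of the 42 genes (rows, by role) in the 6 libraries (columns), coloured by log2 RPKM minus the mean of both shNT libraries (blue lower, red higher). The 4 knockdown libraries are blue for 38 of 42 genes, and POLD4 is the 1 row that is red in all 4.

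All genes of the helicase and loading group (CDC45, GINS1 to GINS4 and MCM10) were lower: 6 of 6 fell with each shRNA, with medians of -1.15 and -1.40. The MCM ring genes of the active helicase were counted with origin licensing instead. MCM10, which helps to activate the helicase, lies on chromosome 10 (13161558 to 13211110 on GRCh38, as for all positions given here). Its level was 2.73 and 2.88 log2 RPKM with shNT, 1.33 and 1.45 with shCENPA1, and 1.03 and 1.22 with shCENPA2. The groups did not overlap, and the log2 fold change was -1.41 ± 0.13 (SE) with shCENPA1 (limma adjusted p = 0.00034) and -1.68 ± 0.13 with shCENPA2 (limma adjusted p = 4.61e-05). CDC45, the subunit whose loading marks an origin as fired, had log2 fold changes of -1.13 and -1.57.

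Within the GINS complex, which holds CDC45 against the MCM ring, all 4 genes fell with each shRNA. GINS3, on chromosome 16 (58295080 to 58406147), had the smallest change of the group averaged over both shRNAs, from 2.46 log2 RPKM in both shNT libraries to 1.54 and 1.70 with shCENPA1 and 1.28 and 1.21 with shCENPA2. Its log2 fold changes were -0.84 ± 0.13 (limma adjusted p = 0.00368) and -1.22 ± 0.13 (limma adjusted p = 0.000202). GINS1 had log2 fold changes of -1.11 and -1.29, GINS2 of -1.17 and -1.51, and GINS4 of -1.21 and -1.15. GINS4 was thus the 1 gene of the helicase and loading group whose change was not larger with shCENPA2. An antisense noncoding gene also covers 21.0% of the exonic bases of GINS4.

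Of the 5 firing genes, 4 fell with shCENPA1 and 5 with shCENPA2, with medians of -0.65 and -0.95. TICRR, known as Treslin, which carries CDC45 to origins, lies on chromosome 15 (89575469 to 89631056). It was at 1.14 and 1.17 log2 RPKM with shNT, -0.18 and -0.20 with shCENPA1, and -0.40 and -0.86 with shCENPA2. That is a log2 fold change of -1.35 ± 0.20 (limma adjusted p = 0.00361) and -1.79 ± 0.20 (limma adjusted p = 0.000328), with no overlap between the groups. Without library 2 of shCENPA1, the adjusted p from limma for shCENPA1 was 0.0543.

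RECQL4, a helicase needed at firing, had the smallest change of this group averaged over both shRNAs, although with shCENPA2 alone that of TOPBP1 was smaller. It was at 3.87 and 4.01 log2 RPKM with shNT, 3.51 and 3.70 with shCENPA1, and 3.56 and 2.90 with shCENPA2, so that library 2 of shCENPA2 lay well below the other knockdown libraries. The log2 fold change was -0.34 ± 0.19 with shCENPA1 (limma adjusted p = 0.332) and -0.71 ± 0.19 with shCENPA2 (limma adjusted p = 0.0267), and the difference between the shRNAs did not pass (-0.38, limma adjusted p = 0.431), except without library 1 of shCENPA2 (-0.71, limma adjusted p = 0.0378). Without library 2 of shCENPA2 the log2 fold change was -0.38 (limma adjusted p = 0.0779), and leaving out library 2 of shNT or either library of shCENPA1 also lost the call, at 0.0778, 0.067 and 0.0655, as did limma without the trend in the variance (0.0858) and a fit of only shCENPA2 and shNT (0.0657). Both genes of the kinase fell, DBF4 (the activator) by -0.70 and -1.10 and CDC7 (the kinase) by -0.59 and -0.95, and TOPBP1, the scaffold that binds Treslin, by -0.65 and -0.68. The shCENPA1 call of CDC7 was lost without any 1 of the 4 libraries compared, at adjusted p values from limma of 0.0797 to 0.199, and without the trend (0.0554), and that of TOPBP1 without library 2 of shNT (0.0513).

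**Figure D2:**
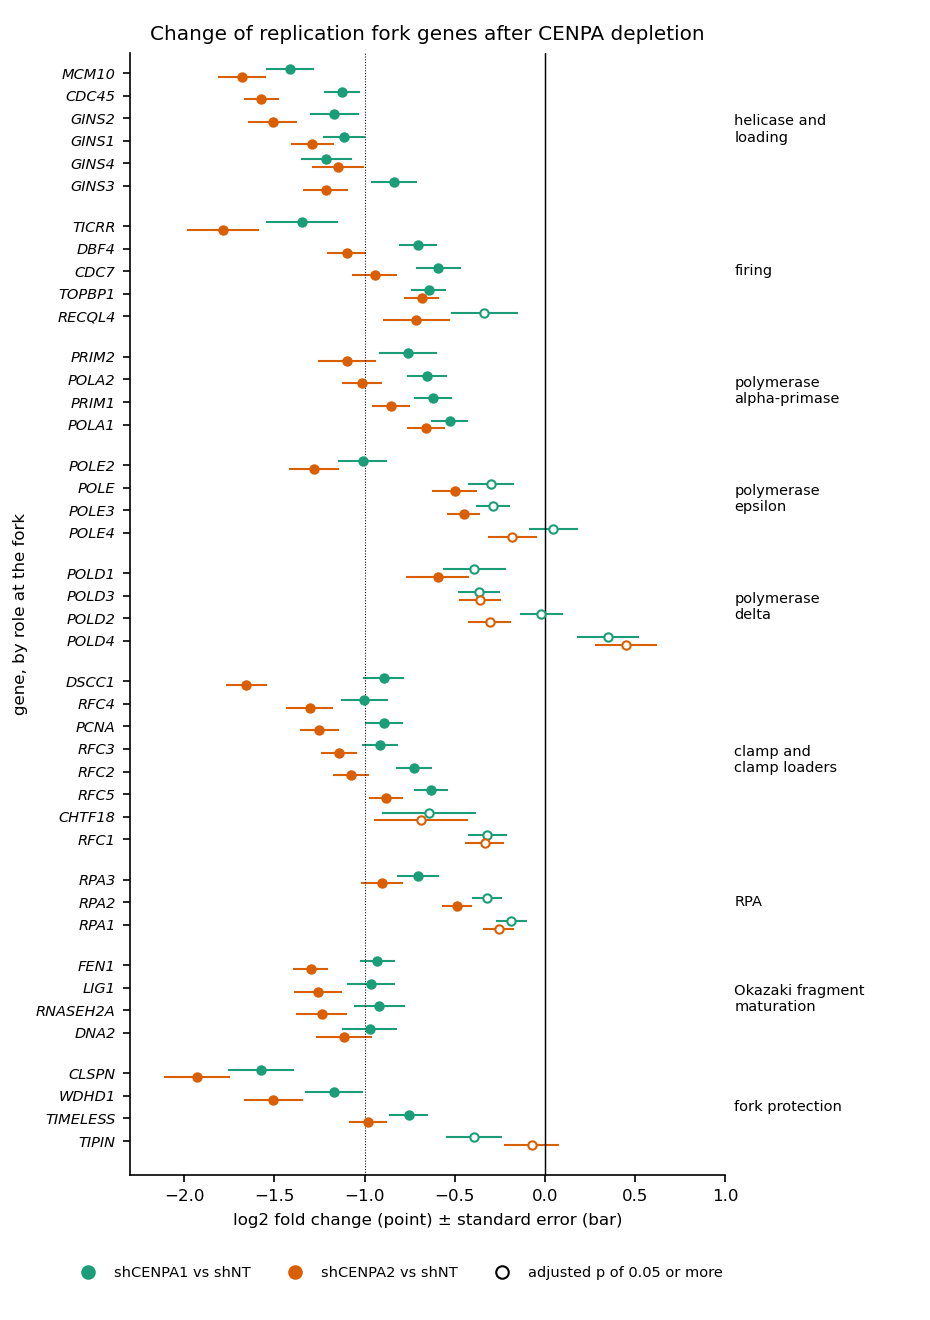
Log2 fold change against shNT (horizontal axis, point) with its standard error (bar) for the 42 genes by role, with shCENPA1 in green and shCENPA2 in orange. Filled points passed an adjusted p of 0.05 and the dotted line marks 2-fold lower. With shCENPA2, all 6 genes of the helicase and loading group and all 4 Okazaki fragment genes crossed that line.

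The 3 replicative polymerases differed in how many of their subunit genes fell: 4 of 4 for polymerase alpha-primase with each shRNA, 1 of 4 (shCENPA1) and 3 of 4 (shCENPA2) for polymerase epsilon, and 0 of 4 and 1 of 4 for polymerase delta. Their medians were -0.64 and -0.93, -0.29 and -0.48, and -0.19 and -0.33. The difference between the polymerases was not tested.

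In polymerase alpha-primase, which starts every new strand, PRIM2 (the large primase subunit, chromosome 6, 57314805 to 57646850) changed most. It was at 2.01 and 1.77 log2 RPKM with shNT, 1.11 and 1.15 with shCENPA1, and 0.64 and 0.94 with shCENPA2, without overlap. The log2 fold changes were -0.76 ± 0.16 (limma adjusted p = 0.0206) and -1.10 ± 0.16 (limma adjusted p = 0.00144). A pseudogene of PRIM2 is annotated, and how reads that fit both were counted is not given, so its level is uncertain. Same-name pseudogenes are also annotated for DBF4, POLE4, POLD2, RFC3, RFC5, RPA2, RPA3, FEN1 and TIPIN, and the same limit holds for them.

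POLA1, the catalytic subunit, on chromosome X (24693873 to 24996986), changed least in that complex. It was at 3.04 and 3.12 log2 RPKM with shNT, 2.59 and 2.52 with shCENPA1, and 2.43 and 2.41 with shCENPA2. The groups were separate, with log2 fold changes of -0.53 ± 0.10 (limma adjusted p = 0.0149) and -0.66 ± 0.10 (limma adjusted p = 0.00212). POLA2, the regulatory subunit, had log2 fold changes of -0.65 and -1.01, and PRIM1, the catalytic primase, of -0.62 and -0.85. Protein-coding genes on the same strand share 16.8% of the exonic bases of POLA2 and 10.9% of those of PRIM1, so their levels are uncertain. With shCENPA1 the calls of this complex were close to the threshold. Without 1 of the libraries that lose a call, the adjusted p from limma was 0.0875 to 0.22 for POLA1 (either shNT library or library 2 of shCENPA1), 0.0516 to 0.0714 for POLA2 (either shNT library or library 1 of shCENPA1), 0.0505 to 0.0772 for PRIM1 (either shNT library or library 2 of shCENPA1) and 0.0551 to 0.185 for PRIM2 (any of the 4).

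Within polymerase epsilon the changes of the subunit genes ranged widely. POLE2, the accessory subunit that ties the enzyme to the helicase, on chromosome 14 (49643555 to 49688422), was at 2.37 and 2.46 log2 RPKM with shNT, 1.29 and 1.52 with shCENPA1, and 1.07 and 1.19 with shCENPA2. Its log2 fold changes of -1.01 ± 0.14 (limma adjusted p = 0.00218) and -1.28 ± 0.14 (limma adjusted p = 0.000252) were on the scale of the helicase and loading group. POLE4, a histone-fold subunit on chromosome 2 (74958643 to 74970128), was at 2.90 and 2.69 log2 RPKM with shNT, 2.77 and 2.91 with shCENPA1, and 2.46 and 2.77 with shCENPA2, and these groups overlapped. Its log2 fold change was 0.05 with shCENPA1 (95% interval -0.26 to 0.35, limma adjusted p = 0.877) and -0.18 with shCENPA2 (-0.49 to 0.12, limma adjusted p = 0.394).

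The catalytic gene POLE and the other histone-fold gene POLE3 lay between them. POLE, on chromosome 12 (132623753 to 132687376), was at 2.89 and 2.90 log2 RPKM with shNT, 2.65 and 2.55 with shCENPA1, and 2.55 and 2.24 with shCENPA2. All knockdown libraries were lower, with a log2 fold change of -0.30 ± 0.13 for shCENPA1 (limma adjusted p = 0.205) and -0.50 ± 0.13 for shCENPA2 (limma adjusted p = 0.0235). The call with shCENPA2 was lost without either shNT library (adjusted p = 0.114 and 0.132 from limma), without library 2 of shCENPA2 (0.0836) and without the trend in the variance (0.0551).

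POLE3, on chromosome 9 (113407235 to 113410675), was the most abundant gene of the complex in RPKM, at 5.52 and 5.50 log2 RPKM with shNT, 5.18 and 5.27 with shCENPA1, and 4.98 and 5.14 with shCENPA2. Its log2 fold change was -0.29 ± 0.09 with shCENPA1 (limma adjusted p = 0.1) and -0.45 ± 0.09 with shCENPA2 (limma adjusted p = 0.00868, and 0.0807 or 0.0673 without library 1 or 2 of shNT). The protein also serves in a chromatin remodelling complex outside the fork. Neither POLE (adjusted p = 0.55) nor POLE3 (0.502) passed the limma test of the difference between the shRNAs.

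Polymerase delta had the smallest median decrease of the 9 role groups, and 1 of its genes lay on the other side of 0. POLD1, the catalytic subunit, on chromosome 19 (50384204 to 50418018), was at 2.81 and 2.98 log2 RPKM with shNT, 2.55 and 2.46 with shCENPA1, and 2.59 and 2.01 with shCENPA2. Library 2 of shCENPA2 was lowest, as it was for RECQL4 and POLE. The log2 fold change was -0.39 ± 0.17 with shCENPA1 (limma adjusted p = 0.228) and -0.59 ± 0.17 with shCENPA2 (limma adjusted p = 0.0434), with no call between the shRNAs (adjusted p = 0.67). The call with shCENPA2 survived the loss of library 1 of shCENPA2 (log2 fold change -0.88), but without any 1 of the other 5 libraries the adjusted p from limma was 0.0635 to 0.184, and without library 2 of shCENPA2 the log2 fold change was -0.30. The call was also lost without the trend in the variance (0.102), in a fit of only shCENPA2 and shNT (0.0865) and in lane 8 alone (0.0622).

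POLD4, the small accessory subunit of polymerase delta, on chromosome 11 (67350772 to 67356972), was at 0.77 and 0.71 log2 RPKM with shNT, 0.90 and 1.28 with shCENPA1, and 1.08 and 1.30 with shCENPA2. All 4 knockdown libraries lay above both shNT libraries. The log2 fold changes of 0.35 ± 0.17 (limma adjusted p = 0.279) and 0.45 ± 0.17 (limma adjusted p = 0.106) did not pass. With shNT it had the lowest RPKM of the 42 genes, and 21.3% of its exonic bases are shared with a readthrough gene on the same strand, so the level is uncertain. POLD2 (log2 fold changes -0.02 and -0.31, adjusted p from limma of 0.945 and 0.106, the latter 0.0283 without library 1 of shCENPA2) and POLD3 (-0.37 and -0.36, adjusted p of 0.1 and 0.063), both accessory subunits, did not pass either.

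**Figure D3:**
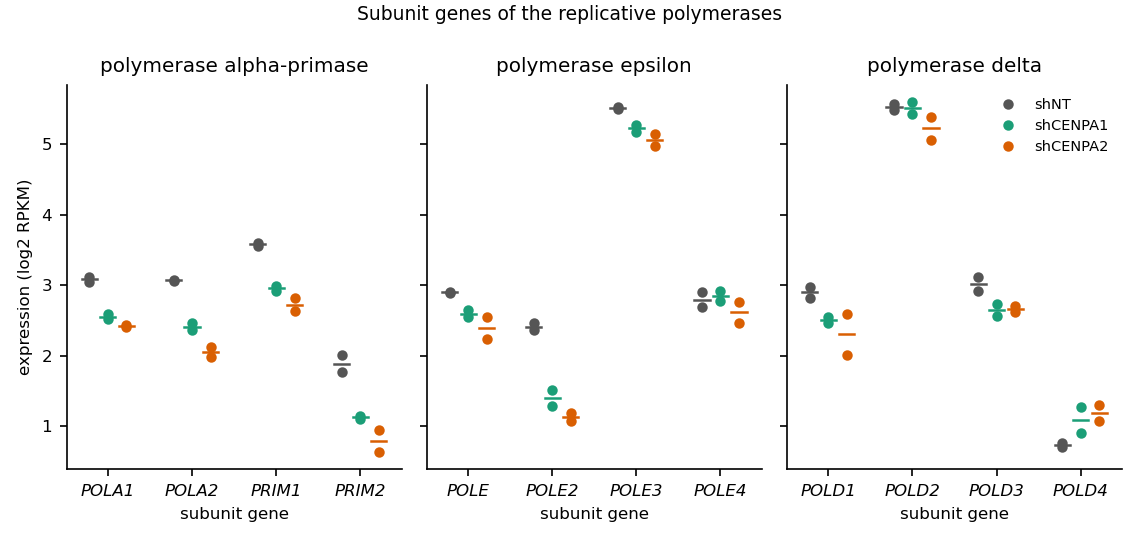
Expression in log2 RPKM (vertical axis) of the 12 subunit genes of the replicative polymerases, with 1 point per library, a short line at the mean of each group, and shNT in grey, shCENPA1 in green and shCENPA2 in orange. The groups separate for every gene of polymerase alpha-primase, overlap for POLE4, and stand in the opposite order for POLD4.

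Most genes of the clamp and its loaders fell. With each shRNA 6 of 8 were lower, with medians of -0.81 and -1.11. PCNA, the sliding clamp and the most abundant of the 42 genes, averaged 154 RPKM with shNT, 83.0 with shCENPA1 and 64.8 with shCENPA2. Its log2 fold changes were -0.89 ± 0.11 (limma adjusted p = 0.00103) and -1.25 ± 0.11 (limma adjusted p = 6.56e-05), although several PCNA pseudogenes are annotated and could take or give reads.

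DSCC1, a subunit of the alternative clamp loader that serves sister chromatid cohesion, had the lowest mean change of this group and was the 1 gene of the 42 that differed between the CENPA-targeted shRNAs. It was at 3.19 and 3.16 log2 RPKM with shNT, 2.20 and 2.36 with shCENPA1, and 1.52 in both shCENPA2 libraries, so that the 3 groups were separate. The log2 fold change was -0.90 ± 0.11 with shCENPA1 (limma adjusted p = 0.00148) and -1.66 ± 0.11 with shCENPA2 (limma adjusted p = 2.23e-05). Between the shRNAs the difference was -0.76 (95% interval -1.02 to -0.51, limma adjusted p = 0.0131), and without library 1 or 2 of shCENPA1 it no longer passed (adjusted p = 0.059 and 0.139). Of all genes, 1.03% were lower with shCENPA2 than with shCENPA1 at this threshold.

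RFC1, the large subunit found in the canonical loader alone, on chromosome 4 (39287456 to 39366375), changed less than the small subunits. That difference was tested only for RFC4, as a ratio given below. RFC1 was at 4.33 and 4.38 log2 RPKM with shNT, 4.18 and 3.89 with shCENPA1, and 3.99 and 4.06 with shCENPA2. The groups did not overlap, but the log2 fold changes of -0.32 ± 0.11 (limma adjusted p = 0.118) and -0.33 ± 0.11 (limma adjusted p = 0.0623, and 0.0302 or 0.0293 without library 1 or 2 of shCENPA1) did not pass. The small subunits, which all clamp loaders share, did: RFC2 by -0.73 and -1.08, RFC3 by -0.92 and -1.14, RFC4 by -1.001 and -1.30, and RFC5 by -0.63 and -0.88. For RFC5 the call with shCENPA1 was lost without library 2 of shNT (limma adjusted p = 0.0638). CHTF18, the large subunit of the cohesion loader, had log2 fold changes of -0.64 ± 0.26 and -0.69 ± 0.26 that did not pass (adjusted p = 0.189 and 0.102 from limma). Its shCENPA2 libraries differed by 0.82 log2 units, the widest gap of the 42 genes, and without library 1 of shCENPA2 the log2 fold change was -1.10 (limma adjusted p = 0.0155), but without library 2 it was -0.28.

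Of the genes of RPA, the single-strand binding trimer, 1 of 3 was lower with shCENPA1 and 2 of 3 with shCENPA2. The difference between the RPA genes was not tested. RPA3, the small subunit, on chromosome 7 (7636518 to 7718607), was at 4.08 and 4.16 log2 RPKM with shNT, 3.26 and 3.56 with shCENPA1, and 3.17 and 3.25 with shCENPA2. Its log2 fold changes were -0.71 ± 0.11 (limma adjusted p = 0.00587) and -0.90 ± 0.11 (limma adjusted p = 0.000677). RPA1, the large DNA-binding subunit, on chromosome 17 (1829702 to 1900082), was at 5.006 and 4.999 log2 RPKM with shNT, 4.84 and 4.79 with shCENPA1, and 4.70 and 4.79 with shCENPA2. Every knockdown library was below both shNT libraries, by an amount that did not pass: -0.19 (95% interval -0.38 to 0.0028, limma adjusted p = 0.234) and -0.26 (-0.45 to -0.07, limma adjusted p = 0.063).

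RPA2, the middle subunit, on chromosome 1 (27891524 to 27914746), was at 5.27 and 5.34 log2 RPKM with shNT, 4.94 and 5.03 with shCENPA1, and 4.80 and 4.84 with shCENPA2. The groups were separate, with a log2 fold change of -0.32 ± 0.08 for shCENPA1 (limma adjusted p = 0.0536) and -0.49 ± 0.08 for shCENPA2 (limma adjusted p = 0.00375). The shCENPA1 value lay so near the threshold that leaving out either shCENPA2 library moved it past (adjusted p = 0.0494 and 0.0497 from limma), and the shCENPA2 call was lost without library 2 of shNT (0.0634). No difference between the shRNAs passed for RPA2 (limma adjusted p = 0.453).

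The 4 genes that mature Okazaki fragments fell by nearly the same amount: their log2 fold changes spanned -0.97 to -0.92 with shCENPA1 and -1.30 to -1.12 with shCENPA2, and 4 of 4 passed with each shRNA. FEN1, the flap endonuclease, on chromosome 11 (61792911 to 61797238), was at 4.53 and 4.57 log2 RPKM with shNT, 3.53 and 3.72 with shCENPA1, and 3.25 and 3.26 with shCENPA2. The log2 fold changes were -0.93 ± 0.10 (limma adjusted p = 0.000574) and -1.30 ± 0.10 (limma adjusted p = 3.61e-05), without overlap.

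DNA2, the nuclease-helicase that trims long flaps, on chromosome 10 (68414064 to 68472121), was at 1.59 and 1.86 log2 RPKM with shNT, 0.77 and 0.74 with shCENPA1, and 0.60 and 0.62 with shCENPA2. Its log2 fold changes were -0.97 ± 0.15 (limma adjusted p = 0.00488) and -1.12 ± 0.15 (limma adjusted p = 0.00104), and the call with shCENPA1 was lost without library 2 of shNT (0.0833) or of shCENPA1 (0.0547). LIG1, the ligase that seals the pieces, had log2 fold changes of -0.96 and -1.26. RNASEH2A, the catalytic subunit of the enzyme that removes RNA from the duplex, had -0.92 and -1.24. A gene on the same strand, THSD8, covers 53.3% of the exonic bases of RNASEH2A, so that its counts are uncertain, and without library 1 of shCENPA1 its adjusted p from limma with shCENPA1 was 0.0635.

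Among the fork protection genes 3 of 4 fell with each shRNA. CLSPN (Claspin), which relays the checkpoint signal from a stalled fork, had the largest decrease of the 42 genes. Located on chromosome 1 (35720218 to 35769978), it was at 2.38 and 2.57 log2 RPKM with shNT, 1.06 and 0.75 with shCENPA1, and 0.75 and 0.34 with shCENPA2. The log2 fold changes were -1.57 ± 0.18 (limma adjusted p = 0.000954) and -1.93 ± 0.18 (limma adjusted p = 0.000122). WDHD1, which couples polymerase alpha to the helicase, followed with -1.17 and -1.51.

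TIMELESS and TIPIN encode partners in 1 complex, but TIMELESS alone passed. TIMELESS had log2 fold changes of -0.76 (limma adjusted p = 0.00272, and 0.0504 without library 2 of shCENPA1) and -0.98 (limma adjusted p = 0.000279). TIPIN, on chromosome 15 (66336191 to 66386746), was at 2.73 and 2.87 log2 RPKM with shNT, 2.53 and 2.28 with shCENPA1, and 2.52 and 2.94 with shCENPA2. The shCENPA1 libraries were below and the shCENPA2 libraries on both sides of the shNT libraries, with log2 fold changes of -0.40 (95% interval -0.74 to -0.05, limma adjusted p = 0.171) and -0.07 (-0.42 to 0.27, limma adjusted p = 0.782). A processed pseudogene, RPL9P25, lies within the annotated exons of TIPIN and covers 21.1% of their bases, so its level is uncertain.

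Because subunits of 1 complex are used together, the log2 ratio of a pair was compared between the 4 knockdown and the 2 shNT libraries for 8 pairs. The ratio of POLE2 to POLE3 was lower by 0.78 log2 units after depletion, from -3.15 and -3.04 with shNT to a range of -3.96 to -3.75 with knockdown. The ratio of RFC4 to RFC1 changed by -0.83, that of RNASEH2A to its partner subunit gene RNASEH2C by -1.07, and that of GINS2 to GINS3 by -0.31. For these 4 pairs the groups did not overlap and the exact two-sided permutation p was 0.0667, the smallest that 15 arrangements allow, which is 0.133 after Benjamini-Hochberg adjustment over the 8 pairs. POLD1 to POLD4 differed by -0.89 (exact p = 0.133, adjusted 0.178), and its groups did not overlap either. POLE to POLE4 differed by -0.33 (exact p = 0.2, adjusted 0.229), POLA1 to POLA2 by 0.24 (exact p = 0.267, adjusted 0.267) and PRIM1 to PRIM2 by 0.19 (exact p = 0.133, adjusted 0.178). The groups of these last pairs overlapped. No pair could pass 0.05 in this design, which counts both shRNAs as 1 knockdown group. The pairs were set by role among genes listed with earlier results of these data known. Groups that do not overlap therefore only describe these pairs. The ratio of RNASEH2A to RNASEH2C also rests on uncertain counts of RNASEH2A, as given above.

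Between the CENPA-targeted shRNAs most fork genes lay in 1 order. Of the 42 genes, 38 had a lower mean with shCENPA2, where 50.6% of all genes did, and for 31 both shCENPA2 libraries lay below both shCENPA1 libraries, where 20.2% of all genes did. CENPA mRNA was itself lower with shCENPA2, by a log2 difference of -0.98 (limma adjusted p = 0.0209). A link between this and the order of the fork genes was not tested. The median difference of the 42 genes was -0.26, and DSCC1 alone passed. After DSCC1 the widest differences were those of CDC45 (-0.45, limma adjusted p = 0.068) and TICRR (-0.44), and the largest in the other direction was that of TIPIN (0.32, limma adjusted p = 0.416).

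Set beside other genes of DNA replication, the fork genes had medians closest to those of origin licensing. Of 15 licensing genes, such as those of the ORC and MCM complexes, 10 fell with shCENPA1 and 11 with shCENPA2, with medians of -0.79 and -1.11. Of 9 genes of nucleotide supply, 6 and 7 fell (medians -0.60 and -0.80). Of 24 further genes that act at forks, in chromatin assembly, fork remodelling or checkpoint signalling, 9 and 13 fell (medians -0.36 and -0.41). The 10 nuclear DNA polymerase genes used in repair and lesion bypass had 1 and 2 lower members (medians -0.21 and -0.12), and of these POLQ, the end-joining polymerase, had log2 fold changes of -1.44 and -1.94. Of 7 genes of mitochondrial DNA replication 0 and 1 fell (medians 0.01 and -0.03). No gene of these 5 lists passed as higher, and the differences between the lists were not tested.

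Markers of cycling cells moved with the fork genes. All 7 proliferation and G2/M genes (MKI67, CCNA2, CCNB1, CDK1, PLK1, AURKA and BUB1) fell with each shRNA, with medians of -1.16 and -1.60. MKI67 was at 4.10 log2 RPKM in both shNT libraries and at 2.40 to 2.90 in the 4 knockdown libraries. The summed RPKM of the 7 markers was 141 and 149 with shNT, 64.4 and 65.6 with shCENPA1, and 53.6 and 51.7 with shCENPA2. The part of cell cycle composition in the decrease of the fork genes was not tested. The prostate marker HOXB13 was higher with shCENPA2 (0.47, limma adjusted p = 0.0164), where 8.05% of all genes were higher. With shCENPA1 it did not pass (0.34, limma adjusted p = 0.104). The epithelial markers KRT8, KRT18, EPCAM and CDH1 did not pass with either shRNA. The remaining marker of that list is not reported here, so HOXB13 does not stand for prostate genes in general.

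**Figure D4:**
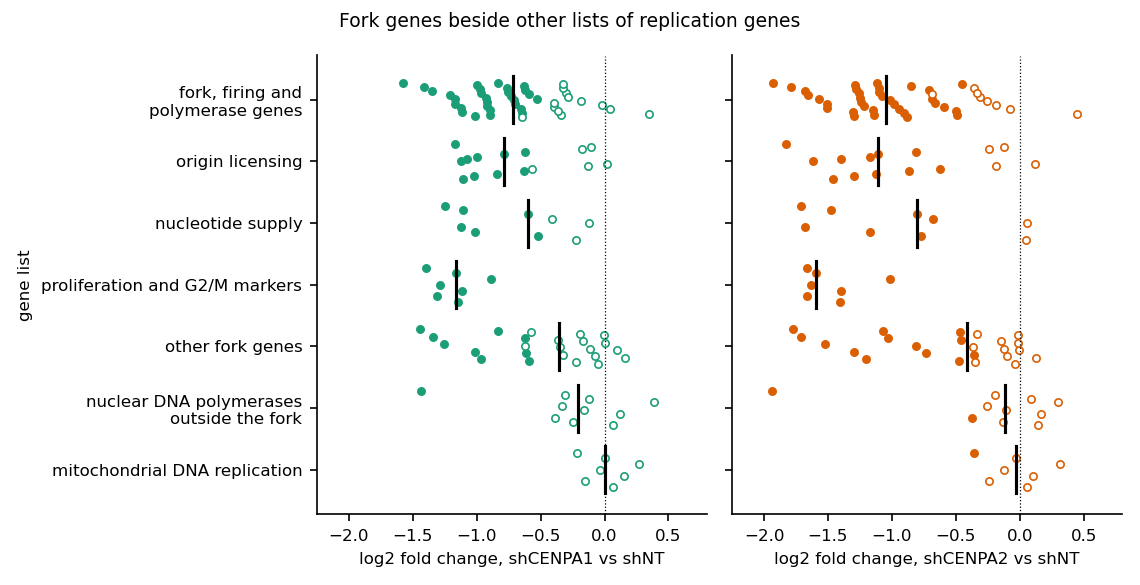
Log2 fold change against shNT (horizontal axis) of single genes (points, spread vertically for legibility) in the fork list and 6 comparison lists, with shCENPA1 at the left and shCENPA2 at the right, filled points at an adjusted p under 0.05 and a black line at each median. The medians of the fork genes (-0.72 and -1.04) lie near those of origin licensing, and those of mitochondrial DNA replication lie near 0.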

How the data were processed

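RNA-seq of 22Rv1 cells with shNT, shCENPA1 or shCENPA2 gave 6 stranded mRNA libraries in 12 runs. The submitters' processing notes name Trim Galore, STAR, HTSeq, edgeR and hg38, with versions not given in the sources used here. What the authors deposited was a table of log2 RPKM for 14828 genes by run, kept where 3 runs reached about 1 CPM (1.006 at the lowest), with a prior of 0.25 reads. Whole reads were recovered from these log2 values for 14828 of 14828 genes, to within 4.3e-08 of a whole number, and gave the depth. No column was left unused (0). The strand setting of the counting is not given in the sources used here.

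Lanes were averaged, since they differed far less (chi-square per gene 1.24 to 1.31) than libraries did (26.5 to 80.1). Nothing in the labels says that the libraries came from separate cultures, so p-values measure the spread between these libraries, which may be technical. The 14624 genes averaging -3 log2 RPKM or more entered a limma fit (version 3.58.1, R 4.3.3, trend, all 3 groups in 1 fit, no covariate), with Benjamini-Hochberg adjustment over all of them. The authors used edgeR on counts. Fold changes are on the scale of the deposited log2 values, which draws weak genes towards 0. For 1 gene with 2 libraries a side, the exact permutation p cannot go below 0.33. The fit was tested on simulated data.

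The members and lists were chosen with earlier results of these data known. Values per library are given for the genes with the lowest and highest mean change in each role, for those that passed with 1 shRNA alone or between the shRNAs, and for CENPA. PCNA, CDC45, CHTF18, POLQ and MKI67 were named after their values were seen. Library numbers did not pair the samples (correlations of deviations -0.06, -0.10 and -0.15). Positions and overlaps are from GENCODE 44 on GRCh38, and promoters from RefSeq. The alternatives were single lanes, runs as replicates with an estimated lane correlation, other filters, constants added to RPKM (0.1 and 1), median-centred or quantile-normalized libraries, no trend, fits of the groups compared, a replicate block, voom on the recovered reads and each library left out. A crossed block was added after seeing the data. The values of 1 listed marker gene are not reported here.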

Additional observations from a re-analysis of the deposited data

Results flagged for a closer look

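DSCC1 was the 1 gene of the 42 whose response differed between the CENPA-targeted shRNAs by a test of the difference itself. Its log2 difference, shCENPA2 minus shCENPA1, was -0.76 (adjusted p = 0.0131 from limma), with means of 1.52 and 2.28 log2 RPKM. Without library 1 or 2 of shCENPA1 the difference was -0.84 and -0.68, and the call was lost. Of all genes, 1.03% were lower with shCENPA2 than with shCENPA1 at this threshold. CENPA mRNA was lower with the same shRNA, and a link between this and DSCC1 was not tested.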

How the results depend on the processing

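The direction of the decrease held widely: 39 of 42 genes with shCENPA1 and 40 with shCENPA2 had a log2 fold change below 0 in every alternative, while 18 of the 29 and 29 of the 34 calls passed in every one. Adding 1 to RPKM reduced the genes lower by more than 2-fold to 3 and 13 and the medians to -0.64 and -0.83. Leaving out 1 library gave 21 to 30 and 29 to 36 passing genes with shCENPA1 and shCENPA2, medians of -0.80 to -0.69 and -1.05 to -0.998, and 0 to 2 passing genes between the shRNAs (0 without either shCENPA1 library, 2 without library 1 of shCENPA2). Lane 8 alone gave 2 genes between the shRNAs and runs as replicates gave 3. With a replicate block the counts were 29, 34 and 1, and with the crossed block 30, 35 and 1, so the block changed no count by over 1.5 times, and the library numbers share only a number.

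Changes of sign touched values near 0. Single settings turned GINS4 (-0.0030, lane 8) and POLD3 (-0.0071, lane 7) and RFC1 (0.021, voom) between the shRNAs, POLE4 (-0.011, lane 7) and POLD2 (0.0019, median-centred) with shCENPA1, and TIPIN (0.015, lane 8) with shCENPA2. With 1 library left out, the difference between the shRNAs ran from -0.021 to 0.15 for GINS4, -0.11 to 0.034 for TOPBP1, -0.49 to 0.088 for POLD1, -0.076 to 0.092 for POLD3, -0.090 to 0.29 for POLD4, -0.15 to 0.13 for RFC1 and -0.46 to 0.37 for CHTF18. The log2 fold change ran from -0.057 to 0.15 for POLE4 and -0.11 to 0.066 for POLD2 with shCENPA1, and from -0.28 to 0.13 for TIPIN with shCENPA2. The cause of these changes was not tested. Over all values of single genes, 2298 kept their direction and side of the threshold, 26 became calls, 48 lost the call and 22 changed sign. With 2 libraries per group, precision is limited by their number.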
